A study of Arabidopsis thaliana with 12 samples.

Results

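Chloroplasts switch part of their metabolism on in the light by reducing disulfide bonds of enzymes. Electrons leave photosystem I on ferredoxin, and ferredoxin-thioredoxin reductase hands them to thioredoxins, which in turn reduce and activate enzymes of the Calvin-Benson cycle. A separate enzyme, NTRC, joins an NADPH-dependent reductase and a thioredoxin domain in a single protein and can also work in the dark from NADPH. The 4 genes described here cover both routes and a pair of enzymes known to be activated by such reduction: FTRC (AT2G04700), which is the catalytic subunit of the ferredoxin-dependent enzyme, NTRC (AT2G41680), PRK (AT1G32060), the phosphoribulokinase that regenerates the CO2 acceptor of Rubisco, and SBPASE (AT3G55800), the sedoheptulose-bisphosphatase of the regeneration phase.

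The genes were taken by name, as probes whose platform annotation lists exactly 1 gene. Each had 1 such probe, so 4 of the 3439 probes are described, out of 692 with 1 annotated gene. RNA abundance was measured, and neither protein amount nor the redox state of any enzyme. The study set 6 samples of the psah2 mutant of Arabidopsis thaliana, which according to the submitters has no PSI-H2, a small subunit of photosystem I, against 6 WT samples. Both are of ecotype Columbia 0, and the labels name no treatment, tissue, age or mutant allele. Total RNA of each sample was hybridised to 1 array with 1 value per probe. Nothing in the labels says whether each sample is a plant of its own, so the spread behind a p-value may be only technical, and the number of arrays limits precision.

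The deposited intensities lie on a linear scale that ends at 100. The median intensity of an array lay between 0.0904 and 0.0995 in psah2 and between 0.304 and 0.379 in WT, and 20.1% to 22.5% of the probes were listed at 0 in psah2, against 13.0% to 13.7% in WT. The summed intensity of an array differed less, with 2602 to 2905 in psah2 and 2972 to 3552 in WT. The groups thus differed in the shape of the intensity distribution and not only by a common factor. Array brightness and genotype cannot be told apart. Values are therefore given as deposited, after quantile normalization and as ratios within an array. Deviations of consecutive replicates (1 with 2, 3 with 4, 5 with 6) from the group mean were compared across probes. The correlation r was 0.00 to 0.12 in psah2 and 0.32 to 0.49 in WT. Consecutive psah2 arrays also had similar shares of probes at 0, with 21.2% and 21.3%, 22.5% and 22.4%, and 20.1% and 20.2%. The arrays may thus be independent in neither genotype. In the model over all probes FTRC and PRK were also called with consecutive replicates averaged, 3 against 3 (limma, adjusted p = 0.000424 and 0.000856). The within-array ratios below did not pass when averaged in this way (exact permutation test, p = 0.1, the smallest that 3 against 3 allows). The exact permutation tests of single intensities below treat the arrays of a group as independent. They were not repeated with averaging, where their p could not fall below 0.1. No probe was paired with PSAH2 or its copy PSAH1 in the annotation, so the genotype labels could not be checked. Of the leaf markers looked up, 2 of 5 had a 1-gene probe, and none of the 3 root and 3 seed markers had one. Only the presence of a probe was looked up, so the tissue was not checked.

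FTRC, the catalytic subunit of the ferredoxin-dependent route, was higher in psah2 in the deposited intensities, in its rank on the array and after normalization. Its deposited intensity had a lowest value of 0.408, a median of 0.444 and a highest value of 0.466 in psah2, against 0.157, 0.176 and 0.213 in WT. The groups did not overlap, and all 6 psah2 arrays lay close together, with a coefficient of variation of 4.95%, against 11.6% in WT. The means were 0.442 ± 0.022 in psah2 and 0.180 ± 0.021 in WT (SD, n = 6 each), a ratio of 2.45 (exact permutation test, 2-sided, p = 0.00216, the smallest that 6 against 6 arrays allow). In RNA of a whole sample, a change in the share of cells that hold a transcript and a change in RNA per cell cannot be told apart. Among all 2643 tested probes only 7.68% were higher without overlap in the deposited intensities, while 66.2% were lower without overlap.

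On its own array the FTRC probe ranked at the 83.1st ± 0.9 percentile of all probes in psah2 and at the 29.4th ± 2.0 percentile in WT (SD, n = 6 each). It was thus above the median probe on every psah2 array and below it on every WT array. After quantile normalization the FTRC log2 change was 2.76 (SE 0.09, 95% interval 2.56 to 2.97), a 6.78-fold rise (limma, Benjamini-Hochberg adjusted p = 1.08e-09). By size this rise was number 41 of 2643 tested probes and number 7 of the 523 tested 1-gene probes. With the intensities as deposited the FTRC log2 change was 1.30 (95% interval 1.07 to 1.53), while the median log2 change over all tested probes was -1.64.

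**Figure D1:**
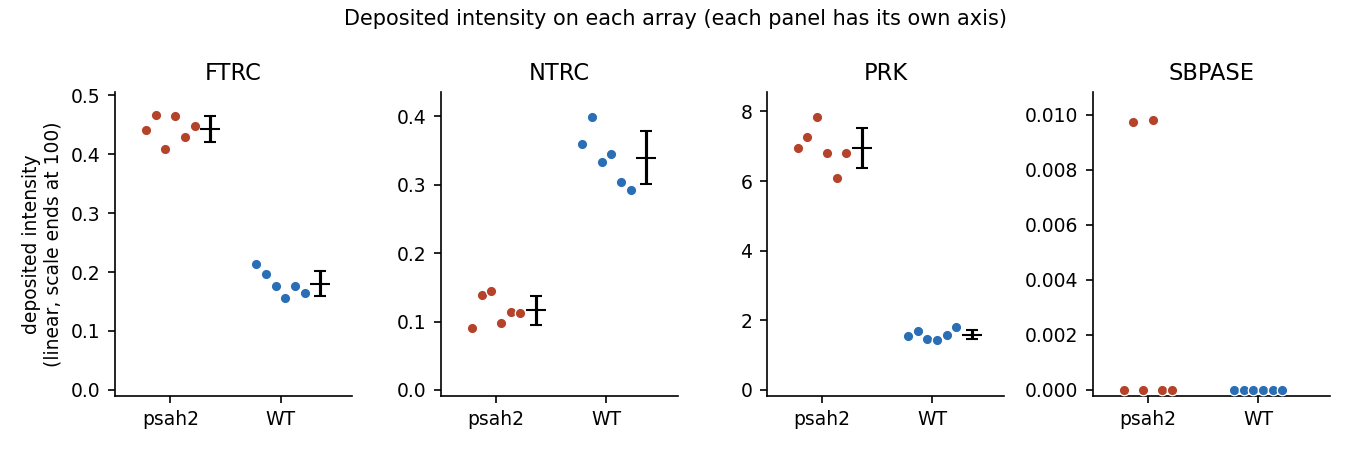
Deposited intensity (linear, scale ending at 100) of the 4 probes on each array, psah2 on the left and WT on the right of each panel; a point is 1 array, and the black bars give mean and SD (n = 6), drawn only where the probe was above 0 on all arrays. FTRC and PRK lie higher in psah2 and NTRC lies lower, each without overlap, and SBPASE is above 0 on 2 psah2 arrays.

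NTRC, the NADPH-dependent reductase, did not follow FTRC. Its deposited intensity had a lowest value of 0.0901, a median of 0.113 and a highest value of 0.144 in psah2, against 0.293, 0.339 and 0.399 in WT. The psah2 values were all lower, with means of 0.116 ± 0.022 in psah2 and 0.339 ± 0.039 in WT (SD, n = 6 each), a 2.92-fold fall (exact permutation test, 2-sided, p = 0.00216). This fall was close to what the arrays as a whole showed, where 66.2% of the tested probes were lower in psah2 without overlap. As deposited the NTRC log2 change was -1.56 (95% interval -1.87 to -1.25), which ranked number 1250 of 2643 probes, near the middle.

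The NTRC probe stayed near the middle of its arrays, at the 54.5th ± 4.2 percentile in psah2 and the 49.9th ± 1.6 percentile in WT (SD, n = 6 each). After quantile normalization its log2 change was 0.01 (SE 0.11), with a 95% interval of 0.850-fold to 1.19-fold (limma, adjusted p = 0.964). The quantile-normalized data therefore leave room for a change of up to about that size in either direction, and they do not show that the transcript is the same in both genotypes. The interval moved with the setting. It was 0.972-fold to 1.41-fold with cyclic loess and 0.755-fold to 1.10-fold with median-centred arrays. With a floor in place of values at 0 it was 1.02-fold to 1.35-fold (limma, adjusted p = 0.0671), and with consecutive replicates averaged 0.779-fold to 1.29-fold. NTRC was called in none of these. NTRC was also the most variable of the 3 genes in the mutant, with a coefficient of variation of 18.6% in psah2 and 11.4% in WT.

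**Figure D2:**
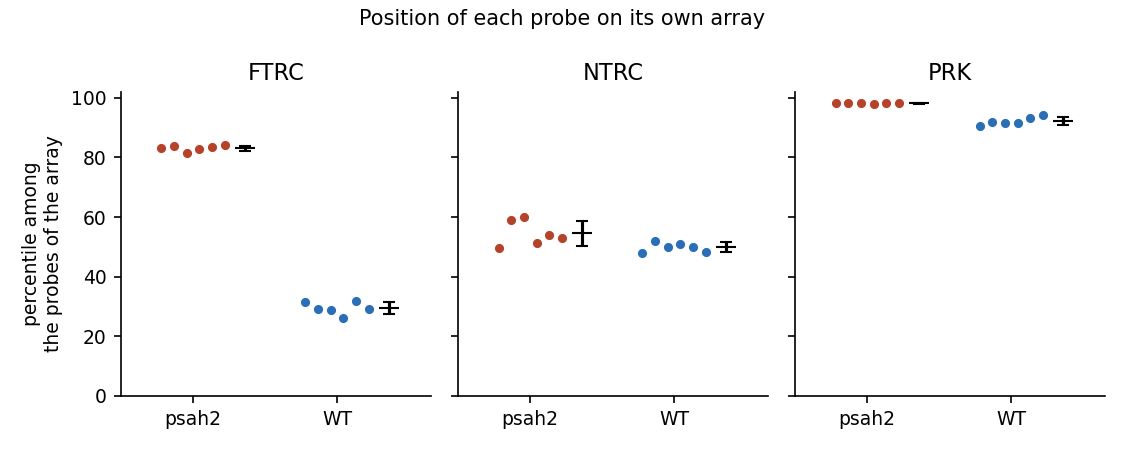
Percentile of the FTRC, NTRC and PRK probes among all 3439 probes of the same array (0 to 100), psah2 left and WT right; points are arrays, and bars are mean and SD (n = 6). FTRC lies between 81.5 and 84.0 in psah2 and between 26.2 and 31.8 in WT, whereas the NTRC groups overlap.

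PRK, the light-activated kinase of the Calvin-Benson cycle, was higher in the mutant, both as deposited and after normalization. Its deposited intensity had a lowest value of 6.10, a median of 6.87 and a highest value of 7.83 in psah2, against 1.45, 1.57 and 1.81 in WT. Every psah2 array was thus far brighter than the brightest WT array. Of all tested probes, 7.68% were higher in psah2 without overlap in the deposited intensities. The means were 6.96 ± 0.58 in psah2 and 1.59 ± 0.14 in WT (SD, n = 6 each), a ratio of 4.37 (exact permutation test, 2-sided, p = 0.00216).

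Its percentile on the array was 98.2 ± 0.1 in psah2 and 92.2 ± 1.3 in WT (SD, n = 6 each), so that the probe was among the brighter ones in both genotypes. The normalized log2 change of PRK had a 95% interval of 1.86 to 2.40 around 2.13 (limma, adjusted p = 2.67e-08), and the change as deposited was also 2.13. The median over all tested probes was -0.26 after normalization and -1.64 as deposited, so PRK stood further above it as deposited. With median-centred arrays the PRK change was 3.55. In the deposited values the PRK rise was number 13 of 2643 probes and number 2 of 523 1-gene probes. After quantile normalization it was number 99 and number 15.

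SBPASE, which acts a few steps before PRK in the same cycle, gave no usable level. Its probe was at 0 on 4 of 6 psah2 arrays and on all 6 WT arrays. On psah2 replicates 2 and 4 it read 0.00974 and 0.00982, brighter than only 97 and 100 of the probes above 0 on those arrays. The difference of 2 of 6 against 0 of 6 arrays above 0 did not pass Fisher's exact test (2-sided, p = 0.455). Of the 369 probes at 0 on all WT arrays, 213 were likewise above 0 on 1 to 3 psah2 arrays. Whether the listed 0 reflects the probe or the transcript was not tested, and no direction can be given for the SBPASE transcript.

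By the model fitted over all probes, 2 of the 4 genes were higher (FTRC and PRK), 1 was tested and not called (NTRC) and 1 was not tested (SBPASE). The same model called 25.2% of all tested probes higher and 36.2% lower. Both FTRC and PRK also lay without overlap in the normalized values, as did 18.8% of the tested probes in that direction. With the deposited intensities in the same model, FTRC and PRK were called higher and NTRC lower, where 9.5% of the tested probes were called higher and 77.5% lower. With 4 genes, nothing is read from their share against these backgrounds.

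**Figure D3:**
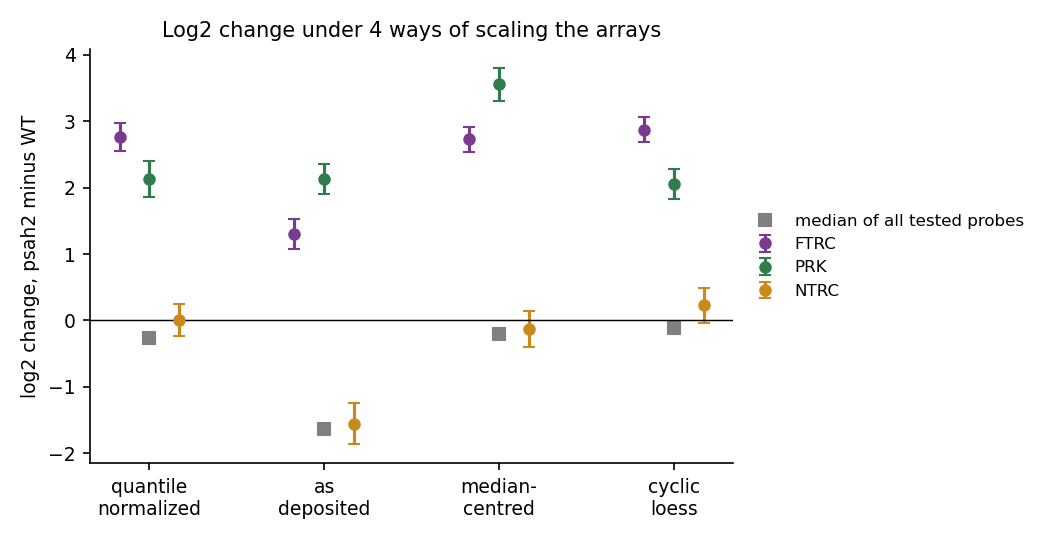
Log2 change (psah2 minus WT) of FTRC, PRK and NTRC under 4 ways of scaling the arrays, with 95% intervals of the limma fit, and the median log2 change of all tested probes as grey squares. FTRC (1.30 to 2.87) and PRK (2.06 to 3.55) lie above 0 in all 4. NTRC lies 0.08 above the median of the probes as deposited and with median-centred arrays. It lies 0.27 above with quantile normalization and 0.35 above with cyclic loess, where the median falls below its 95% interval in both.

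A ratio of 2 probes on the same array does not depend on any factor common to that array, although it still depends on an additive offset and on how each probe responds to its transcript. It does not remove a difference in the shape of the intensity distribution, and array medians differed more between the genotypes than array sums. The first ratio sets the ferredoxin route against the NADPH route. The log2 ratio of FTRC over NTRC ranged from 1.504 to 2.290 in psah2 and from -1.14 to -0.76 in WT. It was above 0 on every psah2 array and below 0 on every WT array; where 0 falls depends on the 2 probes, and only the shift between the genotypes is compared. The mean log2 ratio was 1.95 ± 0.30 in psah2 and -0.91 ± 0.15 in WT (SD, n = 6 each), a difference of 2.86 or 7.25-fold (exact permutation test, 2-sided, p = 0.00216, the same after adjustment over 3 ratios). Of 2132 other probes above 0 on all arrays, 26.4% had a ratio to NTRC that was higher in psah2 without overlap.

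PRK over NTRC, a target enzyme against the NADPH-dependent reductase, moved further. Its log2 ratio was 5.92 ± 0.23 in psah2 and 2.23 ± 0.23 in WT (SD, n = 6 each), a difference of 3.69 or 12.9-fold (exact permutation test, 2-sided, adjusted p = 0.00216). The lowest psah2 array stood at 5.70 and the highest WT array at 2.63. Of 2132 probes, 26.4% had a ratio to NTRC that was higher in psah2 without overlap. The log2 ratio of PRK over NTRC is the sum of the other 2 log2 ratios and adds no independent evidence to them.

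PRK over FTRC, the target enzyme against the ferredoxin-dependent reductase, differed least. Its log2 ratio was 3.97 ± 0.15 in psah2 and 3.14 ± 0.20 in WT (SD, n = 6 each), a difference of 0.83 or 1.77-fold (exact permutation test, 2-sided, adjusted p = 0.00216). The groups did not overlap, and 1.08% of 2132 probes rose without overlap against FTRC. That share is low partly because FTRC was itself among the highest rises, number 95 of 2643 tested probes as deposited. The order of these 2 rises nevertheless depends on the scaling. In quantile-normalized values the same difference was -0.63 (adjusted p = 0.00433), so that FTRC rose more than PRK there, and the data do not settle which of the transcripts rose more.

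**Figure D4:**
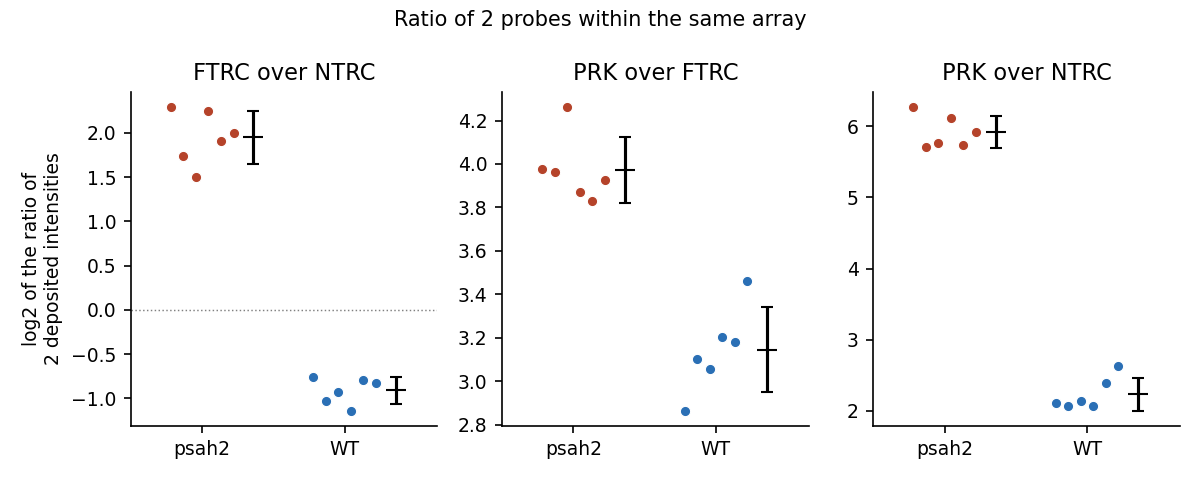
Log2 ratio of the deposited intensities of 2 probes on the same array, psah2 left and WT right, for FTRC over NTRC, PRK over FTRC and PRK over NTRC; points are arrays, bars are mean and SD (n = 6), and the dotted line marks equal intensity. No panel has overlapping groups, with differences of 2.86, 0.83 and 3.69.

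The surrounding pathway was thinly covered. Of 59 listed genes of the plastid thioredoxin system, the Calvin-Benson cycle, other thioredoxin targets and the thioredoxin reductases NTRA and NTRB, 7 had a 1-gene probe. None of the plastid thioredoxins f, m, x, y or z, of the variable subunits of ferredoxin-thioredoxin reductase or of the leaf ferredoxins was among them. Of the 7, 5 were tested. After quantile normalization 3 of them were called higher (FTRC, PRK and CHLM), none was called lower and 2 were not called, where 25.2% of all tested probes were called higher and 36.2% lower. Their median log2 change, which is that of CHLM, was 0.44, against -0.26 over all tested probes. With 5 genes, nothing is read from this median or from their shares called. With the intensities as deposited 2 were called higher (FTRC and PRK) and 3 lower (NTRC, NADP-MDH and CHLM), where 9.5% of all tested probes were called higher and 77.5% lower.

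The 3 genes beyond the 4 named ones were NADP-MDH, CHLM and PRXIIE. NADP-MDH (AT5G58330), the plastid malate dehydrogenase that thioredoxin activates in the light, read 0.160 to 0.240 in psah2 and 0.391 to 0.529 in WT. Its normalized log2 change was 0.12 (SE 0.12, limma, adjusted p = 0.413) and that as deposited -1.22 (adjusted p = 4.11e-06), and it was called higher with cyclic loess (0.32, adjusted p = 0.0409) and with a floor in place of values at 0 (0.29, adjusted p = 0.0352). CHLM (AT4G25080), a methyltransferase of chlorophyll synthesis, had a normalized log2 change of 0.44 (adjusted p = 0.0269) but one of -0.92 as deposited (adjusted p = 0.000186). The CHLM call ended with a block for the replicate number (adjusted p = 0.0677), with array weights (0.0966), with consecutive replicates averaged (0.170) and without any one of psah2 replicates 1 and 2 or WT replicates 1, 2, 5 and 6 (0.0509 to 0.0585).

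PRXIIE (AT3G52960), a plastid peroxiredoxin, read 0.0870 on 1 psah2 array and was listed at 0 on the other 5, which left it untested by the model. On the 6 WT arrays it read 0.260 to 0.285. Its probe lay on average at percentile 17.01 of the psah2 arrays and at percentile 41.74 of the WT arrays. On the 5 psah2 arrays at 0 it takes the tied percentile of all probes at 0, so the psah2 average is not a measured position. With a floor in place of values at 0 it was tested and called lower in psah2 (limma, adjusted p = 0.00167), where the size of the change is set by the floor.

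The 1-gene probes whose normalized profile over the 12 arrays was most like that of each gene were sought among 420 probes above 0 on every array, by the root mean square distance of profiles centred on their own means. Nearest to FTRC were AT3G02030 (distance 0.196 on the log2 scale), AT3G47650, a DnaJ-type zinc finger protein (0.222), and AT3G25410 (0.312), against a median distance of 1.60 over the candidates. Nearest to PRK were AT3G54210, a plastid ribosomal protein (0.179), AT3G09050 (0.192) and AT1G33250 (0.235), against a median of 1.31. Nearest to NTRC were AT3G04210 (0.173), PPDK (AT4G15530), the pyruvate orthophosphate dikinase (0.184), and NADP-MDH (0.185), against a median of 0.619. The NTRC profile itself departed from its own mean by a root mean square of 0.144, less than any of these distances, so a flat profile would have been nearer, and the likeness is that none of the 3 was called after normalization. The distances rest mostly on the difference between the genotypes. With median-centred arrays 0 of the 3 names was shared for each of the 3 genes. The named probes then stood, in the order given, at numbers 6, 25 and 16 for FTRC. They stood at 12, 5 and 14 for PRK and at 11, 22 and 15 for NTRC, of 420 candidates. They thus stayed among the nearer probes, and which 3 were nearest depended on the scaling.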

How the data were processed

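The authors deposited 1 table of 3439 probes with 1 intensity per array, linear, from 0 to 100. Scanner, background correction and scaling are not given in the sources used here. Intensities were log2-transformed, values at 0 left missing, and arrays quantile-normalized, which removes any true difference in total signal. Probes with at least 4 values in each group were tested, and 796 were not. The comparison of psah2 with WT used limma 3.58.1 (lmFit, eBayes; R 4.3.3), 2-sided, Benjamini-Hochberg adjusted over all tested probes, threshold 0.05, no covariate. The fit was tested on simulated independent arrays without a normalization step, which tests neither the scaling nor the effect of correlated arrays. Single intensities and within-array log2 ratios were compared by exact permutation of the arrays in SciPy 1.17.1. Probes were named from the platform annotation through a RefSeq gene table of assembly TAIR10.1, in which 690 of 692 matched. Coordinates and sequences were not used here. The 4 genes are named, with every listed gene that has a 1-gene probe and, for each gene above 0 on all 12 arrays, the 3 probes of most similar profile. Genes, lists and tests were chosen with earlier results of these data known. Alternatives were other scalings, filters, a floor, array weights, a trended prior, a replicate block, averaged consecutive replicates and each array left out. Averaging the ratios was added after seeing the data.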

Additional observations from a re-analysis of the deposited data

Results flagged for a closer look

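The samples were searched for an array standing apart from the other 5 of its group, which chance produces in about 1 of 20 groups. It was found in 1 of 18 groups tested. For the log2 ratio of PRK over FTRC, psah2 replicate 3 stood at 4.26, above the other psah2 arrays at 3.83 to 3.98 (gap over range 0.658). On that array PRK had its highest psah2 intensity, 7.83, and FTRC its lowest, 0.408. Without it the difference between psah2 and WT was 0.77 in place of 0.83.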

How the results depend on the processing

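The rises of FTRC and PRK kept their direction and their call in all 22 alternative fits, with log2 changes of 1.30 to 3.24 for FTRC and 2.06 to 3.55 for PRK. With values as deposited, 251 probes were higher and 2049 lower in place of 667 and 958. NTRC, at 0.01 and not called, turned to -1.56 as deposited (adjusted p = 7.21e-07), where the median of all tested probes was -1.64, and to -0.13 with median-centred arrays (adjusted p = 0.381). Its change was 0.23 with cyclic loess (limma, adjusted p = 0.138) and 0.23 with a floor (adjusted p = 0.0671), called in neither. Leaving out 1 array gave NTRC log2 changes of -0.0447 to 0.0540, below 0 without psah2 replicate 2 or 3 or WT replicate 1 or 6, none of them called. NADP-MDH turned to -1.22 and CHLM to -0.92 as deposited. PRK over FTRC turned to -0.63 with quantile-normalized values; the cause was not tested. With consecutive replicates averaged the ratio differences were 2.86, 0.83 and 3.69, at the smallest p that 3 against 3 allows, 0.1, while the model over all probes called FTRC (adjusted p = 0.000424) and PRK (0.000856). SBPASE, untested otherwise, changed by 4.25 on the log2 scale at a floor, with an SE of 2.61 (adjusted p = 0.214).

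With the replicate number as a block, FTRC and PRK were called (log2 change 2.76, adjusted p = 1.07e-05, and 2.13, 1.73e-05), NTRC was not (0.01, adjusted p = 0.961), 654 probes were higher and 938 lower, and the 3 ratios passed a sign-flip test of same-numbered arrays (exact p = 0.0312). The block ended the call of CHLM (0.44, adjusted p = 0.0677). The labels do not say what a number shares. Deviations of same-numbered arrays correlated with r from 0.06 to 0.17, above 0.1 for 4 of 6 numbers, and across the genotypes each array correlated best with the array of its own number, a hint from the data. Within WT, consecutive arrays correlated more strongly, with r from 0.32 to 0.49. Values at 0 limit what can be said of SBPASE and PRXIIE.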
